A study of Bos taurus with 43 samples.

Results

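The 100 genes described here were those whose messenger RNA followed COL1A2 most closely from cow to cow in uterine luminal samples taken with a cytology brush. They were chosen by the highest Pearson correlation with ENSBTAG00000013472, the identifier given as COL1A2, over 43 cows on the scale log2(CPM + 1), where CPM is the gene's count per 1000000 counts of its library. The choice was made among 11920 genes with a mean of at least 5 CPM, of 27570 in the tables, and it left out COL1A2 itself and ENSBTAG00000013103, ENSBTAG00000021466 and ENSBTAG00000018463. The tables give identifiers only, and 0 of them could be matched to a symbol in the gene table used here, so the name COL1A2 was taken as given, and members are reported by identifier, without function, position or sequence.

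COL1A2 encodes the alpha-2 chain of type I collagen, which is wound with alpha-1 chains into the triple helix of the most common fibrillar collagen. Fibroblasts secrete it as a procollagen that is trimmed, assembled into fibrils and cross-linked outside the cell. In the endometrium, fibrillar collagen lies in the stroma beneath the epithelium, whereas a cytology brush moved over the luminal surface mainly takes epithelial cells. Whether the libraries carried markers of one or the other cell type was not checked here, for want of symbols.

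The samples came from multiparous Angus x Brahman cows. All cows carried a progesterone-releasing vaginal device for 7 days with a GnRH analogue at its insertion, then received a PGF2alpha analogue, showed estrus and received a further GnRH dose on day 0. The lumen was brushed on day 4, a single embryo made in vitro was transferred on day 7, and pregnancy was scored around day 30. The groups were 25 pregnant and 18 nonpregnant cows, all of which had received an embryo, and 22 cows of the second round of synchronization (block 2) and 21 of the first (block 1). Block 2 held 14 pregnant and 8 nonpregnant cows, and block 1 held 11 and 10. Progesterone (P4) in blood on day 4 ranged from 0.27 to 1.88 in a unit the labels do not give. Each cow gave 1 library of 11159501 to 23572549 counts, with 16705 to 18842 genes detected, and the 10 most abundant genes of a library took 3.70% to 11.3% of its counts.

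COL1A2 differed widely between cows. Its lowest, median and highest values over the 43 cows were 5.39, 132 and 1009.9 CPM, a 187-fold range, with an SD of 1.62 on the log2(CPM + 1) scale. The lowest value stood on 83 counts and the highest on 20242. The highest cow was nonpregnant replicate 6, followed by pregnant replicate 11 with 836 CPM, and the lowest was pregnant replicate 4, followed by nonpregnant replicate 17 with 15.1 CPM. Both ends of the range therefore held cows of both outcomes.

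The 3 genes left out by the rule were not equally close to COL1A2. ENSBTAG00000013103 (r = 0.984) and ENSBTAG00000021466 (r = 0.966) would have taken the top places. They ran from 2.14 to 1172 CPM with a median of 170 CPM, and from 1.75 to 2110 CPM with a median of 293 CPM. ENSBTAG00000018463 (r = 0.764) would have come in place 104, outside the 100, and its range of 80.3 to 756 CPM, with a median of 243 CPM, was much narrower.

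The members' correlation with COL1A2 ran from 0.768 to 0.959 with a median of 0.849. These values chose the members and are a description without a test. Of the 100 genes, 22 had an r of at least 0.9 and 78 an r of at least 0.8, and ranks gave the same picture, with a Spearman rho of 0.740 to 0.973. Over all genes kept, r had a median of 0.05 and 334 genes (2.80%) reached 0.5, against 13 genes at -0.5 or lower. The distribution was thus long on the positive side and short on the negative one. The gene of lowest r, ENSBTAG00000016874 (r = -0.588), varied little, between 140 and 304 CPM. At the edge of the choice, ENSBTAG00000007348 was inside with an r of 0.7682 and ENSBTAG00000046263 outside with 0.7648, so that the limit separated no distinct groups.

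**Figure D1:**
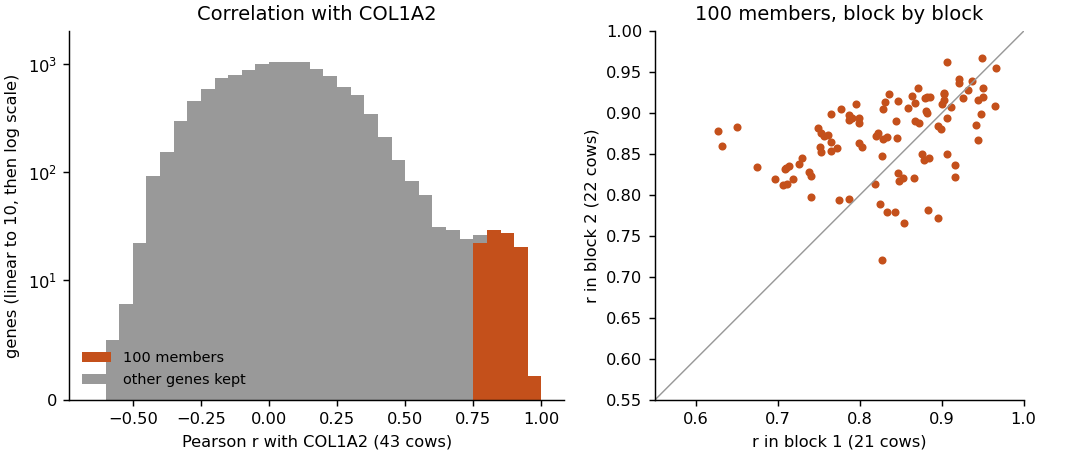
Left, number of genes (linear to 10, log scale above) by Pearson r with COL1A2 over 43 cows, for the 100 members and for the other genes kept; the members lie between 0.768 and 0.959, at the end of a long positive tail. Right, r of each member in block 1 (x axis) and in block 2 (y axis), with the line of equality; all 100 members lie above 0.6 in both.

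The 2 members closest to COL1A2 showed how the pattern looked in single cows. ENSBTAG00000011802 (r = 0.959) had a lowest, median and highest value of 0.390, 61.4 and 280 CPM in pregnant cows, against 5.75, 84.0 and 327 CPM in nonpregnant cows. ENSBTAG00000003505 (r = 0.957) had 1.23, 49.9 and 742 CPM in pregnant cows, against 14.9, 103.3 and 443 CPM in nonpregnant cows. For both genes the ranges of the outcome groups overlapped widely, and the lowest cow was a pregnant one. For ENSBTAG00000003505 the nonpregnant range lay inside a wider pregnant one. Their log2 slopes on COL1A2 were 0.97 and 0.99, so that a doubling of COL1A2 CPM came with close to a doubling of each.

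Most members varied less than COL1A2, with a median SD of 1.17 against 1.62 on the log2(CPM + 1) scale. The slope of a member's log2(CPM + 1) on that of COL1A2 had a median of 0.61 and ran from 0.28 to 0.99, below 1 in each of the 100 genes. The added count of 1 CPM flattens the slope of genes with few counts, and scatter about the line also lowers a least-squares slope. A slope below 1 is therefore not by itself a smaller amplitude. The widest member, ENSBTAG00000004094, had an SD of 1.68 on that scale, above that of COL1A2, although its slope was 0.88. Its lowest, median and highest values were 0.455, 61.8 and 420 CPM. The narrowest, ENSBTAG00000054680, had an SD of 0.55, with 3.74, 9.92 and 22.8 CPM. The member of highest CPM, ENSBTAG00000014835 (r = 0.922), had 4.22, 179 and 1011.7 CPM. These 3 genes were chosen after their values were seen, and CPM is not scaled by transcript length, so it does not rank genes by number of transcripts.

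The members were variable genes of low to moderate counts. Their mean CPM had a median of 12.3 and ran from 5.06 to 287, against a median of 35.8 over all genes kept, and 35 members had a mean under 10 CPM while 12 had 50 or more. Each of the 100 lay above the median SD of all genes kept, 0.38 on the log2(CPM + 1) scale, and their own median SD was 1.17. The 90th percentile of cows lay above the 10th by a median of 10.6-fold, with a range over members of 2.86-fold to 41.0-fold.

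Sampling of reads contributed little to this variation. A member's median count per library had a median of 140.5 over members and ran from 36 to 2685, and counting error accounted for a median of 1.02% of a member's variance between cows, and for 3.90% at most. A count of 0 occurred in 15 of the 4300 member values, in 14 genes. The biological coefficient of variation estimated by edgeR had a median of 0.842 for the members and 0.309 over the 15206 genes tested. It is the spread between libraries beyond counting error, and with 1 library per cow it also holds differences in brushing and library preparation.

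The 100 genes varied together as well as with COL1A2. The 4950 pairs of members had a median r of 0.822 and a lowest r of 0.460, against a median of 0.06 and a 5% to 95% range of -0.495 to 0.610 over all pairs of genes kept. For 88 of the 100 members the correlation with the mean of the other members, 0.906 at the median, was higher than that with COL1A2. A mean over many genes evens out the scatter of single genes, which COL1A2 alone does not. The count therefore cannot show whether members lie closer to each other than to COL1A2. A single principal component held 81.3% of the members' variance and the next held 3.66%. The pairs share libraries and were all chosen through 1 gene, so these figures describe the group and are not independent of the choice.

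**Figure D2:**
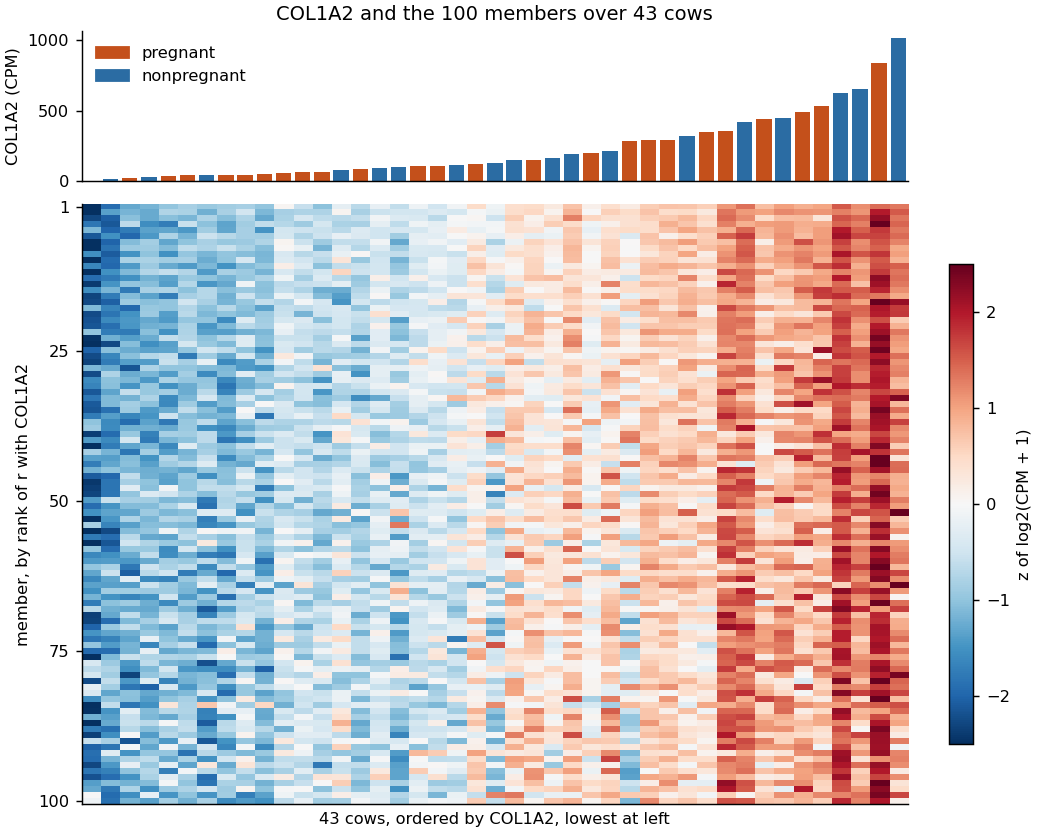
Above, COL1A2 in CPM for each of the 43 cows, ordered from lowest to highest and coloured by outcome. Below, each member (rows, ordered by r with COL1A2) in the same cows as its z-score of log2(CPM + 1); the rows pass from low at left to high at right together, and pregnant and nonpregnant cows are found along the whole order.

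The cows could be ordered by the members much as by COL1A2. The mean log2(CPM + 1) of the 100 members had a lowest, median and highest value of 1.44, 3.56 and 5.85 and an SD of 1.04 over the cows. It was highest in pregnant replicate 11, where 60 members had their highest value, and next in nonpregnant replicate 10, where 26 had theirs. It was lowest in pregnant replicate 4, where 58 members had their lowest value. In pregnant replicate 11 each of the 100 members was among its own 10 highest cows. Together the members took 0.0322% of a library's counts in the lowest cow, 0.184% in the median cow and 0.915% in the highest. In such bulk samples, more cells that express these genes and more RNA per cell cannot be told apart.

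**Figure D3:**
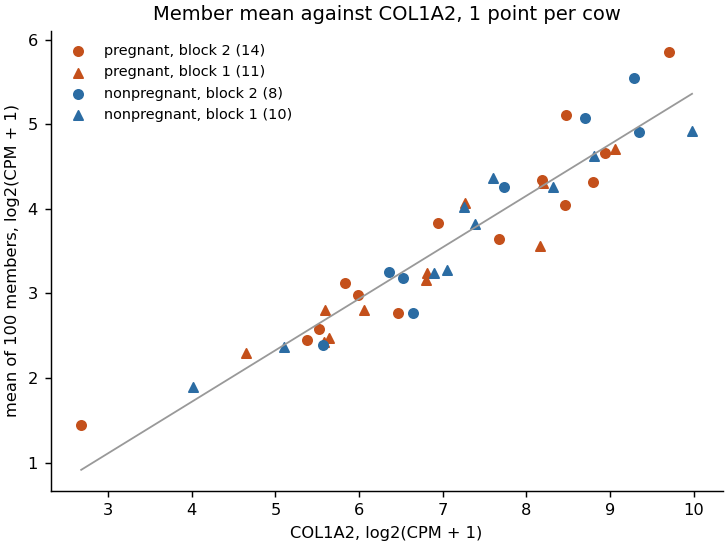
Mean log2(CPM + 1) of the 100 members (y axis) against log2(CPM + 1) of COL1A2 (x axis), 1 point per cow, with outcome by colour, block by symbol and a least-squares line of slope 0.61. All 4 combinations of outcome and block are spread along the line.

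The association with COL1A2 was present in each subset of cows. Among pregnant cows alone the members' r had a median of 0.855 (lowest 0.712), and among nonpregnant cows alone 0.854 (lowest 0.681). It was 0.876 in block 2 (lowest 0.720) and 0.843 in block 1 (lowest 0.627). Because these cows had served to choose the members, the choice was also made in 1 block and read in the other. The 100 genes of highest r in block 1 had a median r of 0.871 in block 2, where 97 of them reached 0.5, against a median of 0.00 and 4.99% of all genes. The 100 genes chosen in block 2 had a median r of 0.829 in block 1, where 92 reached 0.5, against a median of 0.09 and 6.77% of all genes. Of these genes, 80 chosen in block 1 and 87 chosen in block 2 were among the members. The cows used to choose and those used to read were different, but the mean CPM filter used all 43 cows. This reading was also chosen after the data were seen, so it is no independent test.

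Library measures were set beside the members. Across the 43 cows the member mean had a Pearson r of 0.37 and a Spearman rho of 0.33 with the number of detected genes, and an r of -0.19 and rho of -0.15 with log2 total counts. Its r with the percentage of counts in a library's 10 top genes was -0.25 (rho -0.12). Without the 2 libraries farthest from the median, these r values were 0.30, -0.04 and -0.31. Within block 2 and block 1 the r with detected genes was 0.46 and 0.29, and that with the top genes -0.33 and -0.13. The r with total counts had opposite signs in block 2 (-0.50) and in block 1 (0.24). The part of these measures in the members' variation was not tested, and with all 3 held constant 96 of the 100 members were chosen again.

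Pregnancy outcome was compared first, to ask whether the members on day 4 differed with the later result of embryo transfer. The member mean had a lowest, median and highest value of 1.44, 3.24 and 5.85 in pregnant cows, against 1.89, 3.92 and 5.54 in nonpregnant cows. The nonpregnant range thus lay inside the pregnant one. No member passed an adjusted p of 0.05 over the 15206 genes (quasi-likelihood test in edgeR, adjusted for block), and no other gene did, so that the background was 0%. At an unadjusted p under 0.05 there were 2 members, beside 2.99% of all genes, but this count hung on single cows. It was 20 without pregnant replicate 11, the cow highest in the members, beside 3.91% of all genes, and 0 without nonpregnant replicate 6, beside 2.85%. DESeq2 and limma voom also called 0 members (background 0% in both), with 5 and 0 at an unadjusted p under 0.05, beside 3.49% and 4.03% of all genes. The count was 1 without the block term and 0 with P4 in the model, beside 2.37% and 1.43%. COL1A2 itself averaged 6.91 ± 1.66 in pregnant and 7.37 ± 1.56 in nonpregnant cows on the log2(CPM + 1) scale (SD, n = 25 and 18), with a log2 fold change of -0.43 ± 0.45 (SE, 95% interval -1.34 to 0.48; adjusted p in edgeR = 1.00), and -0.15 without nonpregnant replicate 6.

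The members' outcome values nevertheless leaned one way. The log2 fold change of pregnant over nonpregnant cows was below 0 in 97 members, beside 48.1% of all genes. Its median was -0.34 against 0.01 over all genes, and -0.50 for the members without pregnant replicate 11. The members vary together, so that 97 genes on one side are not 97 separate observations. The median was -0.10 in limma voom and -0.20 with P4 in the model. It was -0.16 in block 2 and -0.52 in block 1, fitted alone, where 0 members passed (background 0% in both) and 0 and 5 members had an unadjusted p under 0.05, beside 3.9% and 2.75% of all genes.

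The members of smallest p in this comparison differed in how far single cows carried their values. ENSBTAG00000021699 had 0, 1.96 and 14.7 CPM as its lowest, median and highest values in pregnant cows, against 0.185, 4.07 and 71.2 CPM in nonpregnant cows. Its log2 fold change was -1.36 ± 0.57 (SE; edgeR adjusted p = 1.00), but -0.65 without nonpregnant replicate 6 and -0.55 in limma voom. ENSBTAG00000006366 had 2.06, 6.96 and 31.9 CPM in pregnant cows, against 3.40, 10.1 and 35.9 CPM in nonpregnant cows (log2 fold change -0.60 ± 0.27 SE; edgeR adjusted p = 1.00). Without 1 library in turn, the value of ENSBTAG00000006366 ran from -0.72 to -0.48, and that of ENSBTAG00000021699 from -1.55 to -0.65. Of the 3 members on the other side, ENSBTAG00000017116 and ENSBTAG00000015749 had log2 fold changes of 0.25 ± 0.45 and 0.10 ± 0.40 (SE), within their errors of 0.

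The precision of these comparisons was limited by the variation between the libraries, 1 per cow. For the outcome fold change, the half-width of the 95% interval was 0.81 (log2) at the median of the members, against 0.28 over all genes. The whole interval stayed inside 2-fold up or down for 29 members, against 92.2% of all genes, so that for most members a 2-fold difference was not outside it. The 29 became 19 without pregnant replicate 6 and 44 without nonpregnant replicate 10. With COL1A2 as a covariate the half-width was 0.42 and 99 members stayed inside 2-fold. At equal COL1A2 the members' median log2 fold change was -0.06 and 0 members passed (background 0%), with 1 at an unadjusted p under 0.05, beside 2.22% of all genes. As members were chosen for following COL1A2, smaller values and narrower intervals at equal COL1A2, and with them the higher count of 99, are built into the choice.

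**Figure D4:**
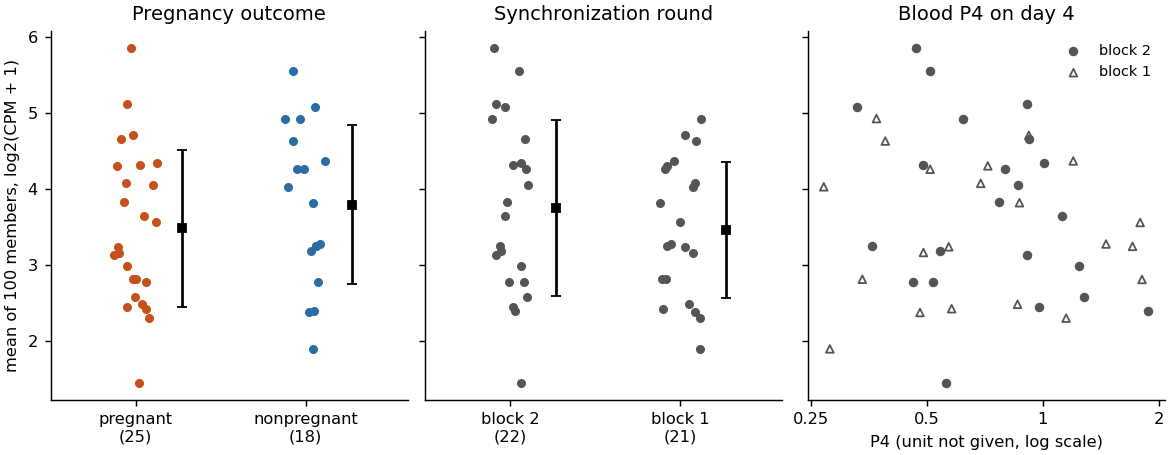
Mean log2(CPM + 1) of the 100 members, 1 point per cow, by pregnancy outcome (left) and by round of synchronization (middle), with squares and bars for mean ± SD, and against P4 on a log scale (right), with block by symbol. The means ± SD were 3.48 ± 1.03 in pregnant and 3.79 ± 1.05 in nonpregnant cows.

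The members were next set against P4, which the corpus luteum secretes and which readies the uterus for an embryo. The member mean had a median of 4.14 in the 14 cows of lowest P4, 3.82 in the 15 of middle P4 and 3.26 in the 14 of highest P4, with ranges of 1.89 to 5.85, 1.44 to 5.11 and 2.30 to 4.70. The lowest of these medians lay with the highest P4, but each of these groups held both high and low values. Over the 43 cows the member mean had a Pearson r of -0.16 and a Spearman rho of -0.14 with log2 P4. Within block 2 and block 1 that r was -0.30 and -0.04. COL1A2 itself had medians of 235, 122 and 125 CPM in the cows of lowest, middle and highest P4. Its lowest median thus lay with middle P4. No member passed for an association with P4 (edgeR, block in the model), beside a background of 0.513% of all genes. At an unadjusted p under 0.05 there were 16 members, beside 16.4% of all genes. DESeq2 and limma voom called 0 members, beside backgrounds of 1.87% and 0%, with 26 and 0 at an unadjusted p under 0.05, beside 17.4% and 12.9% of all genes. That count was 24 with P4 unlogged and 6 with outcome in the model, beside 15.9% and 13% of all genes. It was 30 without nonpregnant replicate 9 or 17, beside 16.5% and 17.6%, and 8 without nonpregnant replicate 6, beside 15.3%, so that it lay on either side of the background. COL1A2 had a log2 slope of -0.45 ± 0.31 per doubling of P4 (SE; adjusted p in edgeR = 0.469), and of -0.21 without nonpregnant replicate 6.

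The P4 slopes were below 0 in 99 members, beside 53.9% of all genes, with a median of -0.35 against -0.01 over all genes and a median 95% half-width of 0.56. The members vary together, so that 99 genes on one side are not 99 separate observations. The median was -0.18 in limma voom. ENSBTAG00000003880 had a median of 20.96, 16.9 and 8.59 CPM in the cows of lowest, middle and highest P4, with a slope of -0.51 ± 0.19 (SE; edgeR adjusted p = 0.169). ENSBTAG00000025210 had 68.0, 54.5 and 30.4 CPM in the same groups, with a slope of -0.57 ± 0.22 (SE; edgeR adjusted p = 0.177). The ranges of the P4 groups overlapped for both. ENSBTAG00000007196, the single member with a slope above 0, had 0.11 ± 0.30 (SE; edgeR adjusted p = 0.885). At equal COL1A2 the median slope was -0.05, and 0 members passed (background 0.572%), with 17 at an unadjusted p under 0.05, beside 15.2% of all genes. As for outcome, a smaller median at equal COL1A2 is built into the choice of members.

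The P4 slopes differed in value between the blocks. Fitted alone, block 2 gave a median slope of -0.85 over the members, and block 1 gave -0.12. Neither fit called a member (background 0% in both), with 26 and 0 members at an unadjusted p under 0.05, beside 22.5% and 6.06% of all genes. The difference between the slopes was tested after these values were seen. It had a median of -0.72 over the members (block 2 minus block 1) and was below 0 in 98, beside 51.8% of all genes. As the members vary together, these 98 are not separate observations either. No member passed by edgeR's interaction test (background 0%), DESeq2 (background 0.0263%) or limma voom (background 0.158%). At an unadjusted p under 0.05 there were 6 members in edgeR, 19 in DESeq2 and 9 in limma voom, beside 8.48%, 9.84% and 19.2% of all genes. The P4 slopes of pregnant and nonpregnant cows were also compared. Their difference (pregnant minus nonpregnant) ran from -1.43 to 0.96 over the members and was below 0 in 51, beside 50.1% of all genes. In limma voom its median over the members was 0.15. By edgeR, DESeq2 and limma voom 0 members passed (background 0% in each), with 0, 1 and 0 at an unadjusted p under 0.05, beside 5.75%, 6.81% and 11.4% of all genes.

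The last comparison is between the rounds of synchronization, which also differ in anything else that changed between them. The member mean had a lowest, median and highest value of 1.44, 3.73 and 5.85 in block 2, against 1.89, 3.27 and 4.92 in block 1. Block 2 thus held the lowest cow as well as the 4 highest. No member passed (edgeR, outcome in the model), beside a background of 0.414% of all genes. At an unadjusted p under 0.05 there were 19 members, beside 14.2% of all genes, and DESeq2 and limma voom called 0 members, beside backgrounds of 1.47% and 5.48%. DESeq2 had 23 members and limma voom 1 at an unadjusted p under 0.05, beside 15.6% and 19.5% of all genes, and edgeR 12 with total counts in the model, beside 15.6%. In edgeR the count was 6 without pregnant replicate 11, beside 13.3%, and 30 without pregnant replicate 4 or 6, beside 13.6% and 15.9%. For COL1A2 the log2 fold change was 0.40 ± 0.45 (SE; adjusted p in edgeR = 0.709), with 0.22 without pregnant replicate 11 and 0.60 without nonpregnant replicate 6.

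The log2 fold change of block 2 over block 1 was above 0 in 97 members, beside 47.9% of all genes, with a median of 0.56 against -0.01 over all genes. Here too the members vary together, so that the 97 genes are not 97 separate observations. The median was 0.36 without pregnant replicate 11, the cow highest in the members, and 0.22 in limma voom. It was 0.68 among pregnant cows and 0.35 among nonpregnant cows. ENSBTAG00000015749 had 0.781, 6.58 and 34.9 CPM as its lowest, median and highest values in block 2, against 0.433, 4.03 and 11.1 CPM in block 1 (log2 fold change 1.11 ± 0.40 SE; edgeR adjusted p = 0.189). ENSBTAG00000007348 had 5.56, 18.7 and 72.6 CPM in block 2, against 2.97, 13.8 and 29.3 CPM in block 1 (0.88 ± 0.32 SE; edgeR adjusted p = 0.189). Both reached higher values in block 2 than in any cow of block 1, while the ranges overlapped below. On the other side, ENSBTAG00000019636 and ENSBTAG00000007196 had -0.27 ± 0.45 and -0.25 ± 0.45 (SE), within their errors of 0.

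At equal COL1A2 the median block difference was 0.12, and 0 members passed (background 0.329%), with 9 at an unadjusted p under 0.05, beside 11.9% of all genes. This smaller median is again built into the choice of members by COL1A2. The outcome difference was not shown to depend on the block. That interaction was above 0 in 82 members, beside 48.7% of all genes, with a median of 0.31, but the median was -0.55 in limma voom. Because members vary together, the 82 are not separate observations. By edgeR, DESeq2 and limma voom 0 members passed (background 0% in each), with 0 at an unadjusted p under 0.05 in each, beside 3.32%, 3.8% and 5.81% of all genes. The 3 comparisons used the same 43 cows, and pregnant cows had a median P4 of 0.860 against 0.510 in nonpregnant cows, so their leanings are not separate observations.

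**Figure D5:**
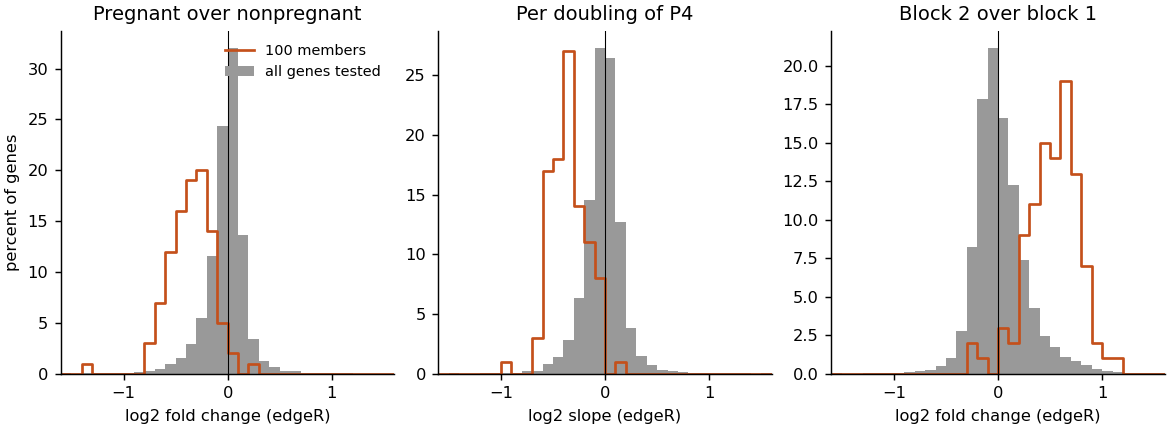
Share of genes (percent, y axis) by edgeR log2 fold change or slope (x axis; values beyond the axis are in the end bins) for the 100 members (line) and all 15206 genes tested (bars), for pregnant over nonpregnant cows, per doubling of P4, and for block 2 over block 1. The members' medians are -0.34, -0.35 and 0.56, and no member passed in any of the 3.

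The labels accounted for little of the members' variation. Outcome, block and log2 P4 together accounted for a median of 6.397% of a member's variance on the log2(CPM + 1) scale, with a range of 0.700% to 21.8%, against a median of 7.43% over all genes kept and 3.22% for COL1A2. Most of the difference between cows in these genes therefore lay within the groups. The percentages are not adjusted for the number of labels, and labels unrelated to a gene would also account for some of its variance. They are therefore no measure of an effect of the labels.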

How the data were processed

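Poly-A RNA from a luminal brush sample of each of 43 cows was sequenced as 1 library, per the labels' protocols. The authors deposited raw read counts for 27570 Ensembl bovine identifiers per library. Per the submitters' processing notes, the tools were HISAT2, HTSeq, Trim Galore 0.4.4 and FastQC 0.11.7 on build ARS-UCD1.2. How strand and shared reads were handled was not given in the sources used here, and overlapping or near-identical genes may be split. Total counts ranged from 11159501 to 23572549 per library.

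Members were chosen as described above. The members, gene lists and tests were chosen with earlier results of these data known. The lists (cell type markers, matrix genes) were given by symbol and could not be applied, since 0 identifiers matched. Named genes were the seed, the 3 left out, the 2 of highest r, those at the limit and the lowest, and the 2 of smallest p per direction and comparison.

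Tests were run over all genes that passed filterByExpr (minimum count 10, smallest group 18; 15206 genes), which all 100 members passed, with edgeR 4.0.16 (TMM factors, robust quasi-likelihood F-test, R 4.3.3) and Benjamini-Hochberg adjustment. SEs are the absolute fold change over the square root of F. Each cow is an independent sample. P4 entered as log2. Alternatives used limma voom (limma 3.58.1, weighted by sample), DESeq2 1.42.0, other factors, filters and covariates, and each library left out. Scripts were tested on simulated data. Correlations are given without p-values, and cover the spread between these cows.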

Additional observations from a re-analysis of the deposited data

How the results depend on the processing

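The number of members called was 0 for outcome, P4 and block under each alternative run and without each library in turn (0 to 0), and 0 for the 3 interactions under the alternatives run, which left out no library, and the smallest adjusted p of any member was 0.694 for outcome, 0.0822 for P4 (DESeq2) and 0.0992 for block (DESeq2). The number of members at an unadjusted p under 0.05 moved by over 1.5 times without any 1 of 14 libraries for outcome (pregnant replicates 6, 11, 17 and 20, nonpregnant replicates 1, 4, 5, 6, 10, 11, 13, 14, 17 and 18), of 7 for P4 (pregnant 11 and 20, nonpregnant 6, 9, 15, 17 and 18) and of 10 for block (pregnant 4, 5, 6, 8, 10, 11, 18 and 20, nonpregnant 5 and 10), within 0 to 20, 8 to 30 and 6 to 30. With all libraries these counts were 2, 16 and 19. For outcome a small change in so low a count already passed the limit, so the numbers of libraries cannot be compared between the comparisons. The membership moved with some of the settings. Spearman correlation kept 92 members, TMM-scaled CPM 98, and pseudocounts of 0.5 and 5 kept 99 and 93. A mean of at least 1 CPM or no filter kept 67 each, as genes with a mean below 5 CPM could then take places among the 100. A mean of at least 20 CPM kept 30, as only 30 members reach that mean. Without 1 library between 85 (without pregnant replicate 4, the lowest in COL1A2) and 100 members were chosen again, and with outcome, block and P4 held constant 96. The signs of small values changed. For outcome in block 1, ENSBTAG00000017116 was at -0.18 and ENSBTAG00000015749 at -0.12, and without 1 library they ran from -0.13 to 0.38 and from -0.042 to 0.23. ENSBTAG00000007196 had a P4 slope of -0.69 in block 2 and -0.059 to 0.22 without 1 library, and a block difference of 0.017 in limma voom and -0.45 to 0.044 without 1 library. ENSBTAG00000019636 ran from -0.41 to 0.10 for block without 1 library. The causes were not tested. Fits within a block or an outcome, the interaction of P4 with block and the choice in 1 block read in the other were chosen after seeing the data. No paired analysis was possible because the numbers of cows name single animals, each in 1 group. Counting error was a small part of the spread between libraries. With 1 library per cow, differences between cows cannot be told apart from those of brushing or library preparation.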

Other observations

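Some cows departed from the common line of members on COL1A2. Pregnant replicate 20 ranked 10 in COL1A2 with 353 CPM and 3 in the member mean, which lay 0.67 above the line on the log2 scale, and pregnant replicate 11 lay 0.66 above it. Nonpregnant replicate 6, the highest in COL1A2, ranked 5 in the member mean and lay 0.44 below the line (-0.44). Pregnant replicate 16 lay farthest below (-0.70), with a COL1A2 of 286 CPM (rank 15) and rank 22 in the member mean. These cows are given as values, and the cause was not tested.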
